A study of Mus musculus with 17 samples.

Results

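The 10 genes described here mark the epithelia that line the brain's ventricles. Ttr, Folr1, Kl, Clic6, Otx2 and Aqp1 are known from the choroid plexus, and Foxj1, Ccdc153, Tmem212 and Rarres2 from ependymal and neighbouring ventricular cells. They were taken by gene symbol from the deposited expression table, where all 10 names were present among 15355 genes. The libraries hold RNA bound to HA-tagged ribosomes, pulled down from mediobasal hypothalamus of POMC-RiboTag mice. POMC neurons are the appetite-suppressing neurons of the arcuate nucleus. Female POMC-RiboTag mice ate a 45% high-fat diet (HFD) or standard chow from 6 weeks of age. They were mated 4 weeks later and kept on that diet until weaning at postnatal day 21 (P21). Their offspring gave 4 groups, with 4 HFD and 3 chow libraries at P21 and 5 HFD and 5 chow libraries at postnatal day 0 (P0).

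All groups share the RiboTag allele and its POMC driver, so no group is without the tag. The strain, the sex and the animals or litters behind each library are not given in the labels, so p-values measure the spread between these libraries, which may in part be technical. RiboTag marks every cell in which the driver is or has been active, and in the developing hypothalamus Pomc is known to be switched on transiently in progenitors of other cells. No library of unselected tissue was analysed here, so the amount of RNA carried over from untagged cells was not measured. In such bulk libraries, fewer cells of a type and less RNA per cell cannot be told apart.

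The choroid plexus is a folded epithelium that hangs into the ventricles and makes cerebrospinal fluid. It secretes transthyretin, which carries thyroid hormone and, through retinol-binding protein, vitamin A, and it moves folate, water and ions into the fluid. Ependymal cells line the ventricle walls and move the fluid with tufts of motile cilia, which are built under the transcription factor FOXJ1. In the mediobasal hypothalamus the wall of the third ventricle is lined by ependymal cells above and by tanycytes below, while the choroid plexus of that ventricle is attached to its roof.

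Each library had 22.4 to 37.1 M reads on the listed genes, as recovered from the steps in the values. Values are in CPM-like units, that is, reads scaled to a common library total by the authors. One read was worth 0.0275 to 0.0460 units, and a value of 0 allows up to 3 reads, or 0.0826 to 0.138 units (counting error only). Other choroid plexus genes differed widely in level. Of 30 further genes of the list in the table, 7 had a median below 1 in HFD P21, 5 in chow P21, 1 in HFD P0 and 4 in chow P0, while Atp1b1, a sodium pump subunit that is also used by neurons, had the highest median in each group (1923 in HFD P21, 1943 in chow P21, 452 in HFD P0 and 605 in chow P0). Kcne2, a potassium channel subunit, was listed at 0 in all 4 HFD P21 libraries and lay between 0.550 and 0.690 in chow P21, 0.0300 and 2.88 in HFD P0 and 0.260 and 7.43 in chow P0. Slc4a5, a bicarbonate transporter, was listed at 0 in 3 of 4 HFD P21 libraries and in all 3 chow P21 libraries. Of 39 further motile cilium genes, 5 had a median below 1 in HFD P21 and 4 in each of the other groups. Rsph1, a radial spoke protein, ranged over 17.1 to 22.6 in HFD P21, 12.3 to 19.3 in chow P21, 6.08 to 12.3 in HFD P0 and 9.77 to 26.5 in chow P0.

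All 10 genes lie on 1 annotated gene each (GENCODE M21, GRCm38, the same assembly as mm10). Rarres2 shares 33.6% of its exonic bases with Lrrc61 on the opposite strand, which is also in the table. The strand setting of the counting is not given in the sources used here, so reads of that pair cannot be told apart, and values for Rarres2 carry that uncertainty. Otx2 shares 3.65% of its exonic bases with its antisense partner Otx2os1 and 3.98% with a gene model on its own strand.

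Transthyretin reached the highest values of the 10 genes and, in units, spanned the widest range of them at P0. Ttr (chr18:20665280-20674321, mm10) had 20.9, 13.5, 33.5 and 13.8 units in the HFD P21 libraries and 12.1, 14.8 and 15.5 in chow P21. It had 19.7, 529, 31.7, 117 and 549 units in HFD P0 and 1126, 104, 8.03, 40.0 and 21.5 in chow P0, in the order of replicates 1 to 5. The P21 groups were narrow, while P0 libraries of the same diet differed 27.9-fold in HFD and 140-fold in chow. In chow P0 replicate 1 Ttr ranked 57 among all genes, and in chow P0 replicate 3 it ranked 10587. It made up 94.5% of the summed level of the 10 genes in chow P0 replicate 1 and 11.1% in chow P0 replicate 3.

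Folr1, the folate receptor that carries folate across the choroid plexus (chr7:101858331-101870788), was measured at 0.530, 1.45, 0 and 0.830 in HFD P21 and at 1.06, 0.410 and 3.17 in chow P21. At P0 it was at 3.58, 5.55, 4.03, 3.72 and 10.2 in HFD and at 14.2, 0.680, 3.13, 1.83 and 2.16 in chow. All HFD P0 libraries lay above all HFD P21 libraries, and the chow groups overlapped. Clic6, a chloride intracellular channel protein, ranged over 1.32 to 3.05 in HFD P21, 1.49 to 4.90 in chow P21, 0.640 to 12.9 in HFD P0 and 1.16 to 7.98 in chow P0. Aqp1, the water channel of the fluid-facing membrane, was listed at 0 in 2 HFD P21 libraries and at 0.280 and 0.850 in the others, and at 0.380, 0.8 and 2.02 in chow P21. At P0 it was at 0.4, 0.760, 0, 1.84 and 3.54 in HFD and at 4.99, 1.12, 0.390, 0.6 and 1.68 in chow, so all 4 groups overlapped.

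The same P0 libraries were high for several of these genes. Chow P0 replicate 1, HFD P0 replicate 5 and HFD P0 replicate 2 held the 3 highest P0 values of Ttr, and also those of Folr1 (14.2, 10.2 and 5.55) and, in another order, of Clic6 (7.98, 9.27 and 12.9). Over the whole table, 53 of 15142 genes with a P0 value above 1 (0.350%) had these 3 libraries on top, Ttr, Folr1 and Clic6 among them. Aqp1 was highest in chow P0 replicate 1 (4.99) and next in HFD P0 replicate 5 (3.54), and then in HFD P0 replicate 4 (1.84). Among 30 further choroid plexus genes 1 had the same top 3, Cldn1, a tight junction protein. So had 1 of 20 tanycyte genes and 0 of 39 motile cilium genes. These 3 libraries held the highest P0 value of 56.7% of those choroid plexus genes and 50.0% of the tanycyte genes. For the cilium genes this share was 38.5%, and for all genes 42.9%. The high libraries came from both diets.

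Kl and Otx2 did not follow that order. Kl, which encodes the Klotho co-receptor for the hormone FGF23 (chr5:150952607-150993817), had 11.9, 4.49, 1.22 and 8.15 units in HFD P21 and 9.21, 3.06 and 1.56 in chow P21. At P0 it had 1.05, 0.680, 0.630, 2.48 and 5.88 in HFD and 1.16, 1.52, 2.19, 2.99 and 2.28 in chow. Its highest values were at P21 in both diets, but all groups overlapped. Otx2, a homeodomain factor needed to form the choroid plexus (chr14:48657677-48673819), had 0.630, 0.0300, 0.370 and 0.5 units in HFD P21, against 1.54, 2.01 and 6.53 in chow P21. At P0 it had 10.6, 6.02, 15.8, 24.5 and 11.3 in HFD and 11.3, 12.6, 21.2, 9.04 and 5.77 in chow. HFD P21 was the lowest group and overlapped none of the others, and the P0 groups overlapped fully.

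Foxj1, the regulator of motile cilia (chr11:116330704-116335399), had 5.54, 5.78, 4.48 and 2.50 units in HFD P21 and 6.50, 8.70 and 16.0 in chow P21. At P0 it had 8.93, 10.2, 10.3, 13.7 and 13.3 in HFD and 11.2, 28.4, 18.9, 20.5 and 6.33 in chow. The HFD P21 libraries lay below those of all other groups. Ccdc153, an ependymal marker that encodes a coiled-coil protein (chr9:44240676-44247306), had 3.44, 5.68, 6.41 and 1.03 units in HFD P21 and 6.82, 12.3 and 17.6 in chow P21. At P0 it had 4.30, 3.47, 3.33, 3.48 and 2.14 in HFD and 3.86, 7.33, 3.48, 4.06 and 1.96 in chow. Chow P21 stood highest, and its lowest library overlapped only the highest of chow P0.

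Tmem212, a membrane protein used as an ependymal marker (chr3:27866066-27896368), had 7.61, 6.84, 15.3 and 2.06 units in HFD P21 and 8.62, 8.07 and 13.5 in chow P21. At P0 it ranged over 2.98 to 5.64 in HFD and 1.8 to 10.6 in chow. The spread within HFD P21 covered the whole range of chow P21. Rarres2, the secreted adipokine chemerin, which ventricular lining cells also make (chr6:48569696-48572789), had 7.86, 8.03, 5.19 and 3.16 units in HFD P21 and 10.2, 11.4 and 17.5 in chow P21. At P0 it had 3.10, 4.96, 5.17, 2.40 and 2.02 in HFD and 4.32, 4.32, 5.19, 3.47 and 3.20 in chow. Its chow P21 values lay above those of every other library.

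The promoters of Ccdc153 and Tmem212 are shown because, of the 10 genes, these 2 had the highest Pearson correlations with Foxj1 between libraries, given further on. Motile cilium genes are known to be switched on by FOXJ1 with RFX factors, which bind a motif called the X-box. The 250 bases before the start of each gene, from RefSeq (GRCm38.p6), are given 5′ to 3′ on the gene's strand, chr9:44240427-44240676 on the plus strand for Ccdc153 and chr3:27896369-27896618 on the minus strand for Tmem212. Capitals mark a match to an X-box, and Tmem212 has none.
Ccdc153: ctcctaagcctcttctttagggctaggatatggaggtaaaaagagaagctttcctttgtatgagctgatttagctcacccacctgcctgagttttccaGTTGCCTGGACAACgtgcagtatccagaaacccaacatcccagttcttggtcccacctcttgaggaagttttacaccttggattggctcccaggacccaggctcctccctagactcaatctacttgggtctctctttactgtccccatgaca
Tmem212: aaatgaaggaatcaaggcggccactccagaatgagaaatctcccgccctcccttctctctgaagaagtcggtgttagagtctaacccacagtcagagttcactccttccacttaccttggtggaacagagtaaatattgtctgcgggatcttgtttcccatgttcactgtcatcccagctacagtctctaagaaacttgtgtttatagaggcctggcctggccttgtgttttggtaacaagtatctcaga
The windows searched hold 250 bases before and 50 after the start, on both strands, for GTTGCC (the first part of the X-box), GTTGCCNNNNCAAC (an X-box with 4 free bases, which contains it), TGTTTAC (forkhead) and GGATTA (OTX). Of 32851 promoter windows 12.5% held the first, 0.247% the second, 3.65% the third and 7.06% the last. Ccdc153 held the X-box GTTGCCTGGACAAC, which begins 152 bases before the start. Tmem212 held none of the 4 motifs in its window. A match is a description of these letters and does not show binding. RefSeq windows were matched for 5 of the 10 genes, the others being Kl, Aqp1 and Otx2, which has 4 windows. Otx2 and Aqp1 held GTTGCC, Otx2 also held GGATTA, and Kl held no match.

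**Figure D1:**
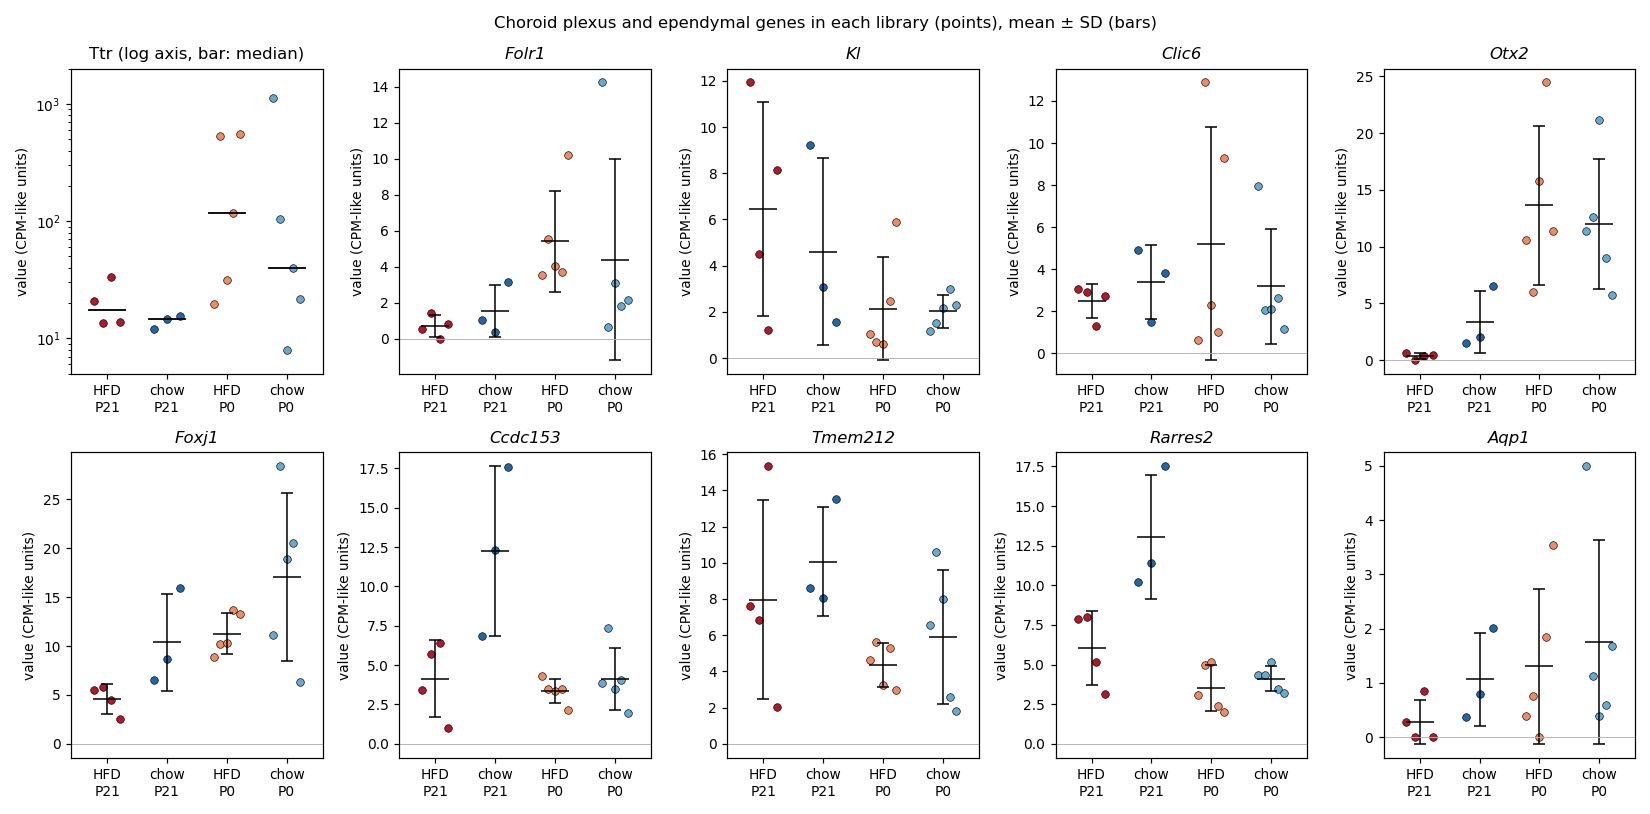
Value of each of the 10 genes (vertical axis, CPM-like units, with a log axis and a median bar for Ttr and linear axes with mean ± SD for the rest) in each library (points), for HFD P21 (n = 4), chow P21 (n = 3), HFD P0 (n = 5) and chow P0 (n = 5). Ttr at P0 spans 8.03 to 1126 within chow, Otx2 in HFD P21 lies at or below 0.630, and Rarres2 in chow P21 lies at or above 10.2.

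Per kilobase of exon, Ttr led in 3 of the 4 groups, at a mean level of 17.2 ± 7.91 units per kb in HFD P21 (SD, n = 4), 210.2 ± 225 in HFD P0 (n = 5) and 219 ± 409 in chow P0 (n = 5). In chow P21 Tmem212 led at a level of 14.1 ± 4.18 units per kb (n = 3), with Ttr at 11.9 ± 1.51. That pair differed by less than the SD of Tmem212. Kl was last in both P0 groups, at a level of 0.230 ± 0.238 units per kb in HFD P0 and 0.217 ± 0.0763 in chow P0. The level of Otx2 was 0.0906 ± 0.0611 units per kb in HFD P21, last of the 10, and 0.796 ± 0.653 in chow P21.

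Offspring of HFD-fed and chow-fed dams were first compared at weaning, to ask whether the mother's diet shifted these transcripts in the pulled-down RNA. Otx2, Ccdc153, Rarres2 and Foxj1 were each lower in every HFD library than in every chow library, and none of these differences passed the test over all genes. Of 9 members tested, those 4 did not overlap, against 7.78% of 14070 tested genes that were lower without overlap and 16.1% in either direction. With limma on log2(value + 1) and Benjamini-Hochberg adjustment over all genes, 0 of 9 members passed at 0.05, and 0.178% of all genes did. The 4 that did not overlap had an unadjusted p under 0.05, as did 17% of all genes. No edgeR count test was run at P21: it was kept to libraries where the 2 decimals of the table place nearly all low values within 0.1 read of a whole number, and no HFD P21 library was among them.

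The log2 difference of Otx2 was -1.50 (SE 0.42, limma adjusted p = 0.122), with means of 0.383 ± 0.258 in HFD (SD, n = 4) and 3.36 ± 2.76 in chow (n = 3). Its HFD values were all below 1, so it entered the test through the chow libraries alone, and with a pseudocount of 0.1 the difference was -2.81. Ccdc153 was at -1.44 (SE 0.46, limma adjusted p = 0.164), with means of 4.14 ± 2.43 in HFD and 12.2 ± 5.39 in chow. Rarres2 was at -1.02 (SE 0.34, limma adjusted p = 0.172), with means of 6.06 ± 2.33 in HFD and 13.04 ± 3.91 in chow. Foxj1 was at -0.99 (SE 0.36, limma adjusted p = 0.201), with means of 4.58 ± 1.49 in HFD and 10.4 ± 4.97 in chow. On this scale a difference understates the change of genes near 0.

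The other choroid plexus genes overlapped between diets at P21. Ttr was at 0.42 (95% interval -0.26 to 1.09), Kl at 0.38 (-0.92 to 1.68), Clic6 at -0.27 (-1.1 to 0.56) and Folr1 at -0.50 (-1.48 to 0.47), or -1.18 with a pseudocount of 0.1. Tmem212 was at -0.51 (-1.53 to 0.52). Aqp1 was not tested, since it was above 1 in 1 of the 7 libraries. The median over the 9 members was -0.51, with 7 below 0, against -0.02 over all genes tested.

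Chow P21 replicate 3 was the highest chow P21 library for 8 of the 10 genes, all but Kl and Clic6. Without it Otx2 was at -1.02, Ccdc153 at -1.15, Rarres2 at -0.81, Foxj1 at -0.66, Folr1 at -0.07 and Kl at -0.06. HFD P21 replicate 4 was the lowest library of its group for Foxj1, Ccdc153, Tmem212 and Rarres2, and without it Ccdc153 was at -1.05, Rarres2 at -0.79, Foxj1 at -0.78 and Tmem212 at -0.07. In no fit with 1 library left out did a member pass.

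Summed markers on 5 lists of other non-neuronal cells were lower in the same HFD libraries. The summed level of 11 astrocyte markers was 2448 to 4170 in HFD P21 and 5434 to 7930 in chow P21, and that of 12 oligodendrocyte markers was 4030 to 7395 in HFD and 8294 to 18430 in chow. For 11 microglia markers the sums were 227 to 322 in HFD and 362 to 599 in chow, for 11 endothelial and mural markers 79.5 to 138 in HFD and 157 to 219 in chow, and for 11 fibroblast and meningeal markers 90.0 to 132 in HFD and 149 to 206 in chow. None of these 5 sums overlapped between diets, and the only marker of these lists at 0 in a HFD library was among the fibroblast genes. Sums of genes of the ventricle lining did overlap. Tanycyte genes summed to 336 to 490 in HFD and 419 to 538 in chow. For further choroid plexus genes the sums were 2585 to 2792 in HFD and 2619 to 3144 in chow. Most of that sum was Atp1b1, which neurons also use, with a median of 1923 in HFD and 1943 in chow. The overlap of the sums thus says little about the other choroid plexus genes, of which most lay below 0 gene by gene (19 of 25 tested, Atp1b1 counted in the list). Further motile cilium genes summed to 342 to 430 in HFD and 303 to 365 in chow. Gene by gene they leaned neither way, with 18 of 36 tested below 0 and 18 above (median -0.02). Chow P21 replicate 3 was also the highest library for the astrocyte, oligodendrocyte and microglia sums. The 9 POMC neuron markers summed to 13244 to 15951 in HFD and 8435 to 16604 in chow, with chow replicate 3 the highest. Gene by gene 4 of 11 astrocyte markers were called lower in HFD, and 0 to 5 with 1 library left out. Of the 9 POMC neuron markers 8 lay above 0 (median 0.72) and 2 were called higher in HFD, also in each fit with 1 library left out, namely Cartpt, a neuropeptide precursor (1.91, limma adjusted p = 0.0137), and Asb4 (1.73, limma adjusted p = 0.0137). The part of these cells in the differences of Otx2, Ccdc153, Rarres2 and Foxj1 was not tested.

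Related genes gave few calls at P21. Of 25 further choroid plexus genes tested none passed and 19 lay below 0 (median -0.48), and the smallest p was that of Igfbp2, an insulin-like growth factor carrier that is also on the list of fibroblast and meningeal markers, at -1.17 (limma adjusted p = 0.125). Of 36 further motile cilium genes none passed and 18 lay below 0 (median -0.02). Their smallest p was that of Fam183b, an axonemal gene, which was at 0.66 (limma adjusted p = 0.168). Of 20 tanycyte genes none passed and 13 lay below 0 (median -0.26), with Vim, the intermediate filament vimentin, at 0.67. Among aquaporins and other CLIC proteins 1 of 5 passed. Clic5, a relative of Clic6 in the CLIC family, fell to 0.533 ± 0.169 in HFD offspring (SD, n = 4), against 5.83 ± 0.787 in chow (n = 3), a log2 difference of -2.16 (limma adjusted p = 0.0199). Its HFD values were all below 1, so it entered the test through the chow libraries alone, where it is high. That call held in 3 of the 7 fits with 1 library left out, and not without chow replicate 2 or 3 or without HFD replicate 1 or 4 (highest limma adjusted p = 0.118). Among Klotho-related receptors and proteases, 0 of 5 passed, and Fgfr3, a fibroblast growth factor receptor, was at -1.12 (limma adjusted p = 0.0501). None of 17 thyroid hormone and retinoid genes, 15 folate genes or 2 chemerin receptors passed.

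**Figure D2:**
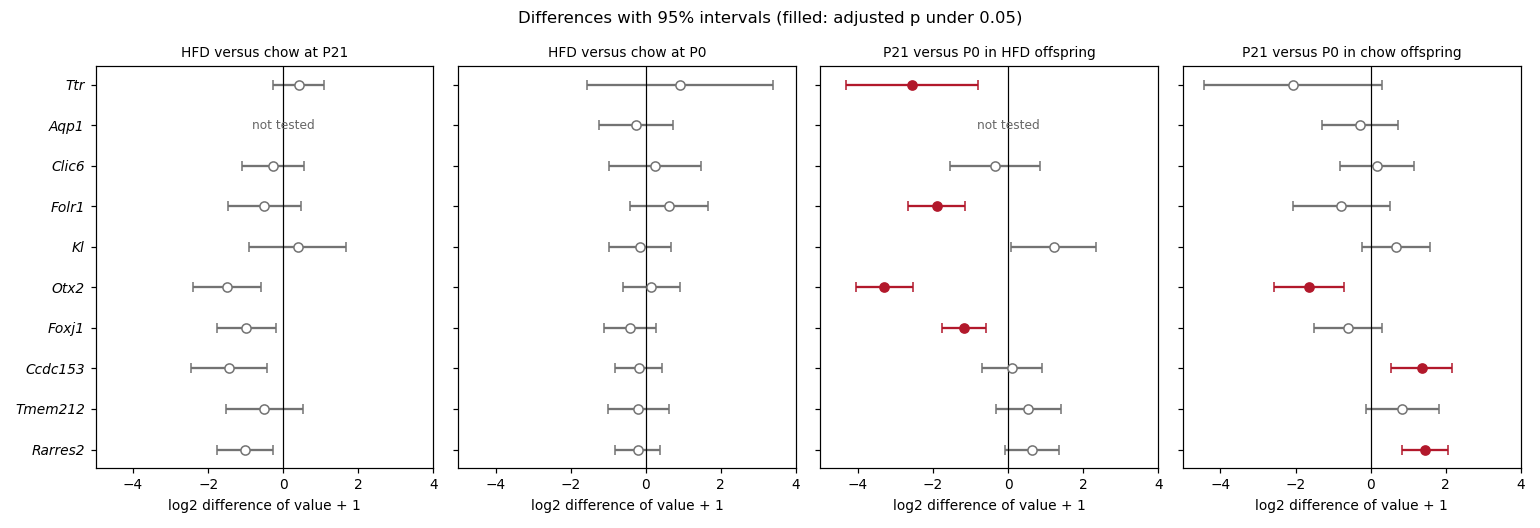
Log2 difference of value + 1 (horizontal axis) with its 95% interval for each gene in the 4 comparisons, HFD over chow or P21 over P0, from limma; filled points passed at an adjusted p of 0.05. At P21, Otx2, Ccdc153, Rarres2 and Foxj1 lie between -1.50 and -0.99 without passing, and Ttr has the widest interval at P0, -1.56 to 3.38.

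At P0 the diet comparison showed no member that separated the groups. All 10 were tested, 0 passed (limma, Benjamini-Hochberg), none had an unadjusted p under 0.05, and all 10 overlapped between HFD and chow. Over all 14086 genes 0.291% passed, 2.45% did not overlap and 9.28% had an unadjusted p under 0.05. The edgeR count test on recovered reads of 5 of the 10 libraries also passed 0 members. The median over the members was -0.17, with 6 of 10 below 0, against -0.0024 over all genes.

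The interval at P0 was wide for Ttr, at 0.91 (SE 1.15, 95% interval -1.56 to 3.38), with medians of 117 in HFD and 40.0 in chow. Without chow P0 replicate 1 it was at 1.95, and without chow P0 replicate 3 at 0.21. Folr1 was at 0.62 (95% interval -0.42 to 1.65) and Foxj1 at -0.42 (-1.12 to 0.28). The other 7 lay between -0.25 for Aqp1 and 0.24 for Clic6. None of these intervals excludes 0, and over the 10 genes they reached down to -1.56 and up to 3.38, so the data do not show the groups to be alike.

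The comparison of P21 with P0 asks how the pulled-down RNA differed between weaning and birth, and was made within each diet. In HFD offspring Otx2, Folr1, Foxj1 and Ttr fell at P21. In chow offspring Otx2 fell, while Rarres2 and Ccdc153 rose. The age comparisons use the same P21 and P0 libraries as the diet comparisons, so their values are not independent of those above.

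In HFD offspring 4 of 9 members tested were lower and 0 were higher at P21, against 26.2% lower, 24.7% higher and 50.9% in either direction among 14245 genes tested. Otx2 fell to 0.383 ± 0.258 at P21 (SD, n = 4), against 13.6 ± 6.97 at P0 (n = 5), a log2 difference of -3.30 (SE 0.35, limma adjusted p = 5.33e-06). All 4 P21 values were below 1, so Otx2 was tested through its P0 values alone. Folr1 fell to 0.703 ± 0.605 at P21, against 5.42 ± 2.79 at P0, a log2 difference of -1.90 (SE 0.35, limma adjusted p = 0.000548), or -3.21 with a pseudocount of 0.1. Folr1 was above 1 in 1 of 4 P21 libraries and in 5 of 5 P0 libraries, so it too was tested through its P0 values, where it is high. Foxj1 fell to 4.58 ± 1.49 at P21, against 11.3 ± 2.11 at P0, a log2 difference of -1.17 (SE 0.28, limma adjusted p = 0.00297). These 3 genes did not overlap between ages, where 19.7% of all genes were lower without overlap.

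Ttr also fell in HFD offspring, to a median of 17.4 at P21 against 117 at P0, a log2 difference of -2.56 (SE 0.82, limma adjusted p = 0.0178). Its ages overlapped, since HFD P0 replicates 1 and 3 (19.7 and 31.7) lay within the P21 range of 13.5 to 33.5. All 4 calls held in each of the 9 fits with 1 library left out. Kl was at 1.21 (limma adjusted p = 0.0675), and passed without HFD P0 replicate 5 (1.55, limma adjusted p = 0.0126) and without HFD P21 replicate 3 (1.70, limma adjusted p = 0.0127). Tmem212 was at 0.54 and passed without HFD P21 replicate 4 (0.98, limma adjusted p = 0.0320). Rarres2 at 0.63, Ccdc153 at 0.10 and Clic6 at -0.35 did not pass. Aqp1 was not tested, as it was above 1 in 2 of 9 libraries. The median over the 9 members was -0.35, against -0.05 over all genes tested.

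In chow offspring 3 of 10 members passed, 2 higher and 1 lower, against 18.3% higher, 17.7% lower and 36.1% in either direction among 14549 genes tested. Rarres2 rose to 13.04 ± 3.91 at P21 (SD, n = 3), against 4.10 ± 0.789 at P0 (n = 5), a log2 difference of 1.44 (SE 0.28, limma adjusted p = 0.00163). It was the only member of the 10 whose ages did not overlap in chow, where 19.3% of all genes were higher without overlap. Ccdc153 rose to 12.2 ± 5.39 at P21, against 4.14 ± 1.97 at P0, a log2 difference of 1.36 (SE 0.38, limma adjusted p = 0.0129). That call was lost without chow P21 replicate 2 (1.31, limma adjusted p = 0.0521) and without chow P21 replicate 3 (1.07, limma adjusted p = 0.0730).

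Otx2 fell in chow offspring to 3.36 ± 2.76 at P21, against 12.0 ± 5.75 at P0, a log2 difference of -1.64 (SE 0.43, limma adjusted p = 0.00929). The call was lost without chow P21 replicate 1 (-1.34, limma adjusted p = 0.0515). Chow P21 replicate 3 (6.53) overlapped the P0 range, which starts at 5.77. Ttr was at -2.06 (SE 1.1, limma adjusted p = 0.162) and at -1.02 without chow P0 replicate 1. Tmem212 was at 0.84, Kl at 0.68, Clic6 at 0.17, Aqp1 at -0.28, Foxj1 at -0.60 and Folr1 at -0.78, none of which passed. The edgeR count test, on reads recovered in 3 P0 libraries and 1 P21 library (replicate 3, assumed to vary like the others, and the highest of its group for Folr1 and Aqp1 and the lowest for Kl), passed 0 of 10 members and 953 genes in all. The median over the members was -0.06, against -0.01 over all genes tested.

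Genes listed for the same epithelia were called in both directions with age, as were genes at large. In chow offspring 8 further choroid plexus genes were higher and 6 lower of 28 tested (50.0%), where 36.1% of all genes passed. Igfbp2 fell by 2.14 on the log2 scale, while Enpp2, the enzyme autotaxin, rose by 2.17 and Atp1b1, a sodium pump subunit, rose by 1.69. Which cells these differences came from was not tested. Of 37 further motile cilium genes 2 were higher and 8 lower (27.0%), a smaller share than among all genes. Tekt2, a tektin of the axoneme, fell by 1.5, Mlf1 fell by 1.25 and Ccdc40, an axonemal assembly factor, fell by 1.01. The 8 lower cilium genes became 3 without chow P21 replicate 2, and the 6 lower choroid plexus genes became 3 without chow P21 replicate 1. In HFD offspring 7 choroid plexus genes were higher and 10 lower of 26 tested (65.4%), and 5 cilium genes were higher and 6 lower of 34 tested (32.4%), where 50.9% of all genes passed.

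Partners of these genes are given for chow offspring beside the same 36.1% of all genes. Of 19 thyroid hormone and retinoid genes 6 were higher and 6 lower. Slco1a4, an organic anion transporter of brain vessels that is also on the list of endothelial and mural markers, rose by 3.57. Among Klotho-related genes Fgfr1 rose by 1.2 and Fgfr3 by 1.05, with 2 higher and 1 lower of 5. Gpr1, a chemerin receptor, rose to 4.30 ± 2.64 at P21, against 0.462 ± 0.393 at P0 (1.76, limma adjusted p = 0.0035). The P0 values of Gpr1 alone were too low for the filter, so it entered the test through P21 libraries, where it is high. Of 16 folate genes 1 was higher and 3 lower (25.0%), and the smallest p was that of Mthfd2, a mitochondrial folate enzyme, at -0.79. Of 5 aquaporins and CLIC proteins 3 were higher, Clic5 (1.93), Aqp4 (1.27), which is also an astrocyte marker, and Clic4 (1.05), and 1 was lower. Of 20 tanycyte genes 4 were higher and 8 lower, with Vim at -2.09 and Deptor, an inhibitor of mTOR, at 2.48.

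Other cells' markers moved with age as well. Fibroblast and meningeal markers summed to 90.0 to 132 in HFD P21 against 308 to 798 in HFD P0, and to 149 to 206 in chow P21 against 237 to 712 in chow P0. Astrocyte markers ran the other way, with 2448 to 4170 in HFD P21 against 1447 to 2077 in HFD P0, and 5434 to 7930 in chow P21 against 1345 to 2217 in chow P0. So did oligodendrocyte markers, with 4030 to 7395 in HFD P21 against 340 to 464 in HFD P0. In chow their sums were 8294 to 18430 at P21 against 439 to 1060 at P0. Summed microglia markers were also higher at P21 in both diets. Summed endothelial and mural markers were lower at P21 in HFD and overlapped between ages in chow. POMC neuron markers summed to 13244 to 15951 in HFD P21 against 1633 to 3882 in HFD P0, and to 8435 to 16604 in chow P21 against 1588 to 3882 in chow P0. How far these shifts account for the differences of Otx2, Folr1, Foxj1, Ttr, Rarres2 and Ccdc153 was not tested.

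The diet difference was also compared between the ages, as an interaction over all 17 libraries. It passed for 0 of 10 members and for 0.0266% of 15037 genes. Otx2 was at -1.65 (95% interval -2.86 to -0.45, limma adjusted p = 0.190), Ccdc153 at -1.26 (-2.39 to -0.12, limma adjusted p = 0.283) and Rarres2 at -0.81 (-1.71 to 0.10, limma adjusted p = 0.387). The estimates of 9 of the 10 members were below 0, with a median of -0.54, against -0.04 over all genes tested. Kl was the exception, at 0.53. A diet difference that differs between P21 and P0 was thus not called for any of the 10.

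Within groups, the 10 genes varied in different ways. Deviations of log2(value + 1) from the mean of the own group were correlated over the 17 libraries, which share their library, depth and scaling, among 14679 genes ranked. These correlations are descriptions only. Ttr deviated by -0.47 to 0.78 in the P21 libraries and by -2.80 to 4.16 at P0. Pearson correlations with Ttr thus rest mostly on the P0 libraries. The gene most like Ttr was Kcne2, the choroid plexus potassium channel subunit (Pearson r = 0.87, Spearman rho = 0.80). Aqp1 had rank 3 (r = 0.76, rho = 0.78) and Clic6 rank 9 (r = 0.72, rho = 0.56), and Folr1 ranked 238 (r = 0.51, rho = 0.26). The other genes among the closest 10 were Inpp4a, Slc7a14, Hdac4, Baiap2, Mri1, 1500015O10Rik and Tmem41b. Of these 1500015O10Rik, a secreted augurin precursor of choroid plexus, is on the list of choroid plexus genes. Kl (r = -0.02), Otx2 (-0.17) and Foxj1 (0.08) were not like Ttr.

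The genes most like Foxj1 were Ano3, Fam216b, Bcan, Ksr2, Scamp2, Rab5c, Tst, Dlg2, Pipox and Ezh2, with r = 0.87 for Ano3. Among members Ccdc153 was closest to Foxj1 (r = 0.70, rho = 0.59, rank 34), then Tmem212 (r = 0.59, rho = 0.47), the pair whose promoters are printed above, followed by Otx2 (r = 0.54, rho = 0.47) and Rarres2 (r = 0.40, rho = 0.37). The median r with Ttr was 0.26 over 29 further choroid plexus genes and 0.08 over 38 motile cilium genes. With Foxj1 it was 0.08 over the choroid plexus genes and 0.15 over the cilium genes. Aqp1 and Clic6 were thus the members most like Ttr by both measures, and Ccdc153 the member most like Foxj1, with Tmem212 and Otx2 next and nearly level.

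**Figure D3:**
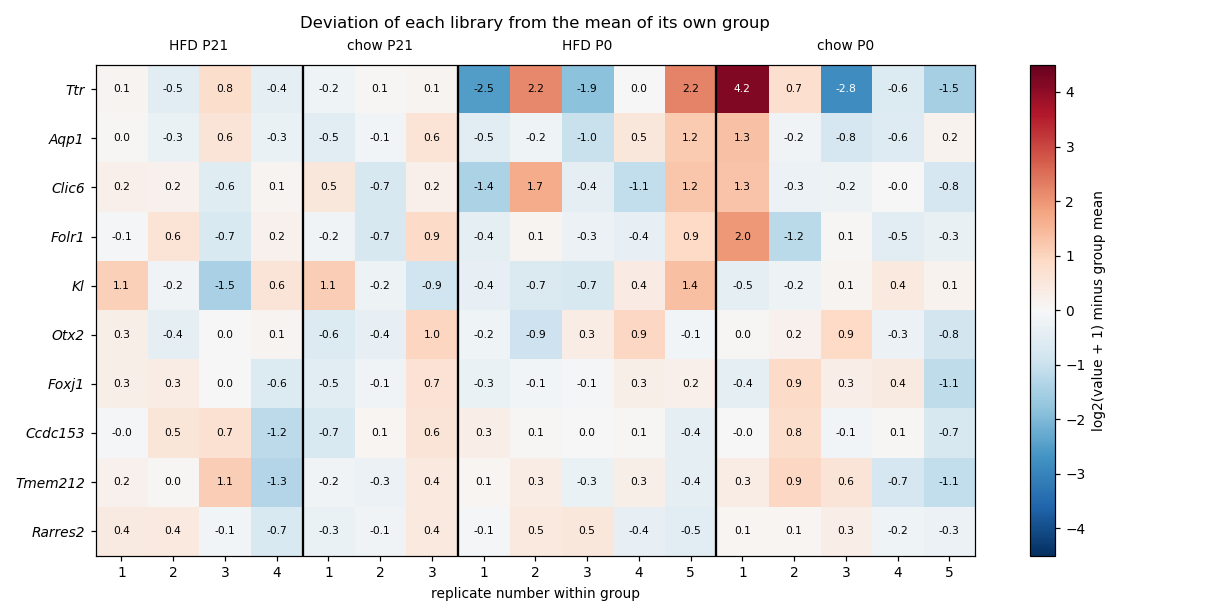
Deviation of each library from the mean of its own group (colour and printed number, log2(value + 1)) for the 10 genes (down the side) in the 17 libraries (replicate numbers along the bottom, groups along the top). Ttr deviates by 4.16 in chow P0 replicate 1 and by -2.80 in chow P0 replicate 3, and Aqp1, Clic6 and Folr1 are also above their mean in chow P0 replicate 1.

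**Figure D4:**
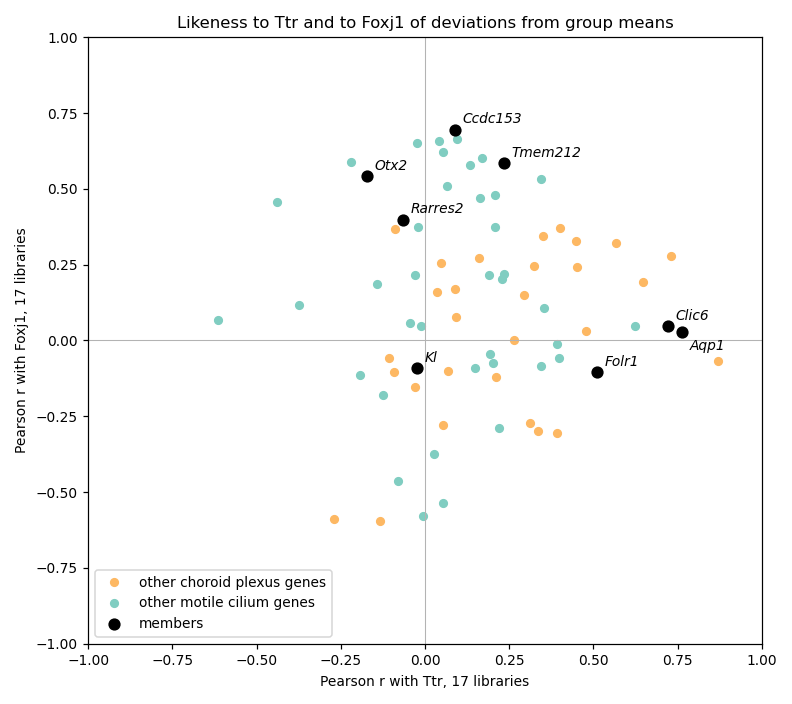
Pearson r with Ttr (horizontal axis) against Pearson r with Foxj1 (vertical axis) of deviations from group means over 17 libraries, for 8 of the 10 genes (black), further choroid plexus genes (orange) and further motile cilium genes (green). Aqp1, Clic6 and Folr1 lie to the right, at 0.51 to 0.76 with Ttr, and Ccdc153 and Tmem212 lie at the top, at 0.70 and 0.59 with Foxj1.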

How the data were processed

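Ribosome-bound RNA of 17 libraries was sequenced from 1 end, 50 bases a read. The authors worked on build mm10, as the submitters' processing notes say, with TopHat2 2.0.13, HTSeq 0.6.1, Picard 1.80, edgeR and FastQC. For their settings, strand option and gene filter the sources used here give nothing. Values in the deposited table are a normalized signal, which the authors gave in CPM-like units with 2 decimals rather than as raw counts. All non-zero values (100%) lay within 0.0051 units of a whole number of reads, against 22.2 to 37.0% for values placed at random, which gave the depths of 22.4 to 37.1 M reads. The table also has 15 empty columns and no other column of per-sample values. No libraries were identical, the highest correlation between any pair being 0.982.

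Differences were tested with limma (version 3.58.1, R 4.3.3), after taking log2(value + 1) and letting the prior variance follow intensity. A gene entered a test if the number of libraries with a value above 1 reached the size of the smaller group. P-values were two-sided and adjusted by Benjamini-Hochberg over all genes, with a threshold of 0.05. Each diet and age comparison used its own libraries, and the interaction used all. An edgeR test had been foreseen for counts. Since the values are not counts, edgeR 4.0.16 was run as an alternative, on reads recovered in 6 libraries where 94.0 to 100% of values of up to 20 reads lay within 0.1 read of a whole number. In the other 11 this share was 50.0 to 79.0%, which is what the rounding to 2 decimals allows, and they were left out of the count test. The script for these fits was tested on simulated data. Other alternatives were a pseudocount of 0.1, no filter, rescaled values, 1 fit over all groups, no trend, a replicate block and each library left out.

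The members and the 16 gene lists were chosen with earlier results of these data known. Named were all members in each comparison, and from each list up to 3 genes with the smallest p at P21 between diets and between ages in chow. The 10 genes most like Ttr and Foxj1 were named among genes above 1 in at least 5 libraries. Kcne2, Slc4a5, Rsph1, Cldn1 and Calml4 were named after their values were seen. One gene that the rule for lists names is not reported here but is counted in the totals of its list. Coordinates and exon lengths came from GENCODE M21, and promoters from RefSeq. Figures were drawn with matplotlib 3.10.9.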

Additional observations from a re-analysis of the deposited data

Results flagged for a closer look

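In groups of 4 to 10 libraries, a value was singled out when its gap to the nearest other library exceeded the 95% critical share of the group's range (Dixon's test, 0.71 for 5 libraries). Of 30 groups examined 4 (13.3%) met this. The test's rate of about 1 in 20 holds for normally distributed values. It was run on untransformed units, which can be skewed, so 13.3% cannot be read as an excess over that rate. All 4 were chow P0 replicate 1 and genes that were high together there, so they are not 4 separate cases. On the log2(value + 1) scale the gap over the range was 0.491 to 0.636 for these genes, below 0.71 for each. Ttr was at 1126 there, with the nearest chow P0 library at 104 (gap over range 0.914). Folr1 was at 14.25, with the nearest at 3.13 (0.819). Clic6 was at 7.98, with the nearest at 2.63 (0.784). Aqp1 was at 4.99, with the nearest at 1.68 (0.720). In the same library Kcne2 was at 7.43 and Calml4 at 13.7, their highest P0 values, but other listed choroid plexus genes had their highest P0 value elsewhere. Kl was at 1.16 there, the lowest of its group, and Otx2 was at 11.35, within its group's range of 5.77 to 21.16. Foxj1 was at 11.2, within its group's range of 6.33 to 28.4.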

How the results depend on the processing

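No member changed its direction or its side of the threshold with a pseudocount of 0.1, without the filter, with rescaled values or without the intensity trend (48 member values each), and rescaling moved the median of all genes by at most 0.025. The pseudocount of 0.1 did widen differences of low genes by over 1.5 times, as for Otx2 (-2.81) and Folr1 (-1.18) at P21, Folr1 with age in HFD (-3.21), and Otx2 (-2.98), Folr1 (-2.07) and Aqp1 (-1.26) in the interaction. In 1 fit over all groups Kl also passed between ages in HFD offspring (1.21). Over all genes the calls between diets at P0 (41) were 10 in 1 fit over all groups and 3 by edgeR, those at P21 (25) were 16 without the filter and 1 without the trend, and the interaction (4) gave 2 without the trend. By edgeR the age calls in chow were 953 genes and 0 members, and signs turned for Clic6 (-1.17), Tmem212 (0.0174) and Aqp1 (0.0327) at P0 and for Folr1 (1.04), Kl (-0.52) and Aqp1 (0.84) with age. These fits hold fewer libraries, 1 of them at P21, chow replicate 3, so the age values rest on it, and it holds its group's highest Folr1 and Aqp1 and lowest Kl. edgeR was not run at P21 or with age in HFD offspring, where no HFD P21 library entered the count test.

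Leaving out 1 library gave 18 to 135 genes at P0, 3 to 51 at P21, 6464 to 8156 with age in HFD, 3911 to 5160 with age in chow and 2 to 557 for the interaction. Members called ranged over 4 to 5 with age in HFD and 2 to 3 with age in chow, and were 0 elsewhere. Signs turned within these ranges at P0 for Kl (-0.49 to 0.0258), Clic6 (-0.18 to 0.59), Otx2 (-0.0801 to 0.38), Ccdc153 (-0.36 to 0.0117), Tmem212 (-0.48 to 0.0358) and Aqp1 (-0.55 to 0.0831), and at P21 for Kl (-0.0632 to 0.93). They also turned with age in HFD for Clic6 (-0.70 to 0.0705) and Ccdc153 (-0.13 to 0.49), with age in chow for Clic6 (-0.0903 to 0.53) and Aqp1 (-0.59 to 0.0542), and in the interaction for Ttr (-1.54 to 0.20) and Tmem212 (-0.67 to 0.13). None of these had passed.

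The labels do not say whether libraries of the same replicate number belong together. Deviations of same-numbered libraries had correlations of -0.173 to 0.492 over 5 pairs at P0 (3 over 0.1) and -0.0439 to 0.101 over 3 pairs at P21. With age they were -0.0977 to 0.0921 in chow and -0.0454 to 0.115 in HFD. With a replicate block the P0 calls were 104 genes. Elsewhere the block also keeps only shared numbers (6 of 7 libraries at P21, 8 of 9 and 6 of 8 with age in HFD and chow, 12 of 17 in the interaction). Each member's difference was the same in those libraries without the block, an alternative chosen after seeing the data. That sameness is no check, since it is fixed in advance by the balance of those libraries. There the interaction had 12 calls with and 15 without the block, P21 had 32 and 7, Kl passed with age in HFD either way (1.55), and signs turned for Ccdc153 with age in HFD (-0.0107), Clic6 with age in chow (-0.10) and, in the interaction, Ttr (1.09), Foxj1 (0.0545), Tmem212 (0.71) and Aqp1 (0.39). Most members lie below 20 units at P21, and Aqp1 and Otx2 below 1 unit in HFD P21, where 1 read is worth 0.0331 to 0.0351 units.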
